A study of Mus musculus with 4 samples.

Results

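Aminoacyl-tRNA synthetases attach each amino acid to its transfer RNA and so supply the substrate of every ribosome. Here their transcripts were followed in donor-derived marrow cells through the 36 genes whose symbols name a cytosolic enzyme or subunit (20 genes, no 2 at the end of the symbol) or a mitochondrial enzyme (16 genes, symbol ending in 2), of 23284 genes in the deposited tables. The libraries came from EGFP+ cells of mice transplanted with LSK cells (Lin- Sca1+ c-Kit+), a marrow population enriched in hematopoietic stem cells and early progenitors. The donors were CAG-EGFP mice, in which the ubiquitous CAG promoter drives EGFP, so EGFP marks donor origin and not a cell type. The 5-FU recipients were WT mice given 5-fluorouracil, a pyrimidine analog toxic to dividing cells, intravenously at 200 mg/kg 2 days before the transplant (2 libraries). The control recipients were WT mice without 5-FU (2 libraries). In both groups the EGFP+ cells were sorted again, from Lymphoprep mononuclear cells of each recipient's marrow, 24 h after transplant. The labels do not give the age or sex of the mice or whether the donor cells were pooled.

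Cytosolic enzymes charge the transfer RNAs used by cytosolic ribosomes, and a separate nuclear-encoded set charges those of the mitochondrial ribosome. In mammals a number of cytosolic enzymes are held in the multisynthetase complex around scaffold proteins, whereas the others act outside it. Several cytosolic synthetase genes are known targets of ATF4, a transcription factor of the amino acid and integrated stress responses, and MYC, a growth-promoting transcription factor, is known to bind many genes of protein synthesis.

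Values are FPKM, by definition fragment counts scaled for transcript length and library size, which allows levels of different genes to be set side by side per length. Read numbers per library were not stated in the sources used here. The worth of 1 read was estimated as the most common ratio to 5-FU library 2 over genes between 0 and 0.3 FPKM in both. With 5-FU library 2 set at 1, it was 1.07 in 5-FU library 1 and 1.31 and 1.26 in control libraries 1 and 2. If such values mostly rest on 1 read, the control libraries were the shallower. All 11 tested of 12 listed stem and progenitor markers were above 0 in every library, among them Kit with 66.2 and 69.5 FPKM in 5-FU libraries and 103 and 65.5 FPKM in control libraries. Macrophage markers were also abundant in every library. The summed level of the 18 listed was 25277 and 13934 FPKM in 5-FU libraries and 28429.7 and 33544 FPKM in control libraries, and none of the 18 was at 0. The values therefore need not come from the labelled cell type, hematopoietic stem and progenitor cells, alone. In such bulk samples fewer cells of a type and less RNA per cell cannot be told apart.

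Cytosolic synthetase transcripts were higher in EGFP+ cells from 5-FU recipients. Of the 20 cytosolic genes, 12 rose and 0 fell at a Benjamini-Hochberg adjusted p under 0.05 in limma's test, and 8 did not pass. Among the 11496 genes tested, 8.23% were called higher and 4.67% lower. The median log2 fold change of the 20 was 0.85, with a range of -0.10 to 1.39, beside a median of -0.015 over all tested genes. All log2 fold changes are 5-FU over control recipients on the log2(FPKM + 1) scale. In 19 of the 20 genes both 5-FU libraries lay above both control libraries, an order that 31.4% of tested genes showed. Mitochondrial synthetases had a smaller median of 0.29. Of these 16 genes 2 rose, 0 fell and 14 did not pass, and in 9 both 5-FU libraries lay above both control libraries. All 36 genes passed the filter on low values. At an unadjusted p under 0.05 there were 16 cytosolic and 4 mitochondrial genes, all of them higher, where 31.4% of all tested genes had such a p and 16.9% had it and were higher, so the mitochondrial count was not far from the share of all genes. The calls rest on both control libraries: without control library 1 or 2, 0 cytosolic and 0 mitochondrial genes passed limma's test, with 11 and 10 cytosolic and 2 and 3 mitochondrial genes at an unadjusted p under 0.05, a level that 17.3% and 16.5% of all tested genes reached. Without 5-FU library 1 the mitochondrial count was 4 and without 5-FU library 2 it was 1. With no filter on low values 0 of the 36 passed in limma's test, while 17 cytosolic and 4 mitochondrial genes, and 22.5% of all genes, had an unadjusted p under 0.05. Without the variance trend 6 cytosolic genes passed. The cytosolic median stayed between 0.77 and 0.88 with any library left out.

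**Figure D1:**
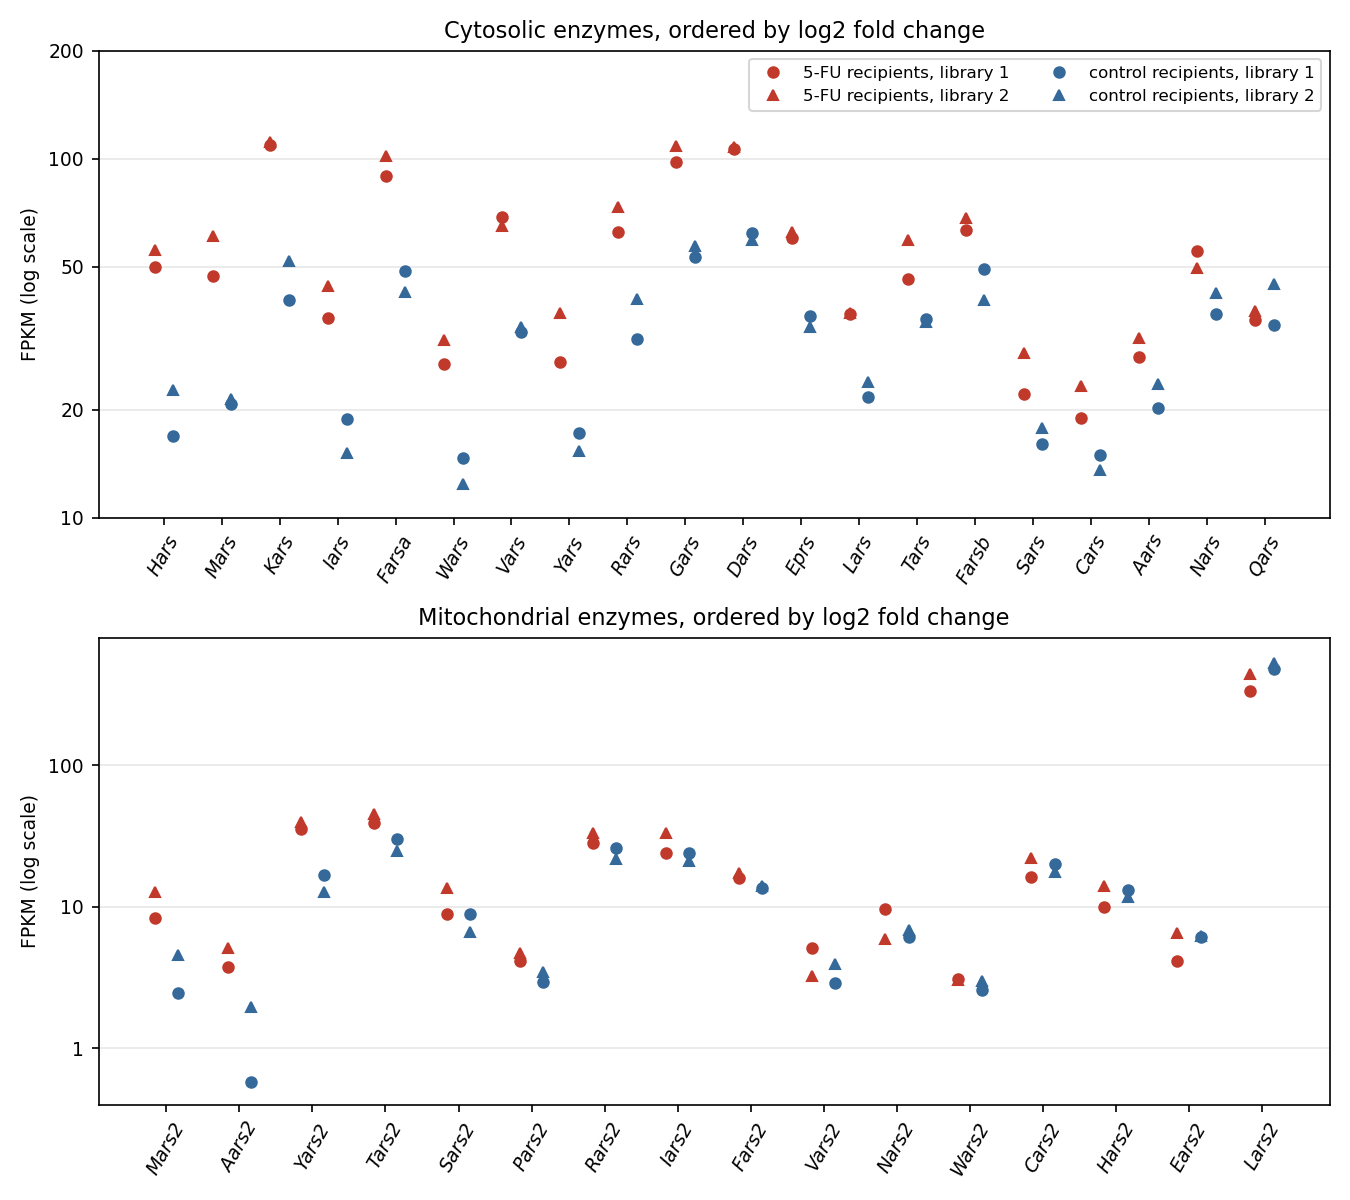
FPKM (log scale) of each cytosolic enzyme (top) and mitochondrial enzyme (bottom) in 5-FU libraries 1 and 2 (red) and control libraries 1 and 2 (blue), ordered by log2 fold change. The 5-FU points lie above the control points in 19 of 20 cytosolic genes and in 9 of 16 mitochondrial genes.

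Promoter sequence is shown for members that hold a binding motif of a factor known to act on genes of protein synthesis or of mitochondria, 4 that rose and Tars, which did not pass. RefSeq's table for GRCm38.p6, the build that mm10 corresponds to, held a window of 300 bases (250 before to 50 from the start) for 27 of the 36 genes, 13 cytosolic and 14 mitochondrial. On both strands 3 motifs were searched. The C/EBP-ATF response element (TGATGNAA), which ATF4 binds, was found in 5 of 13 cytosolic and 0 of 14 mitochondrial windows, and in 3.97% of all 32851 windows. The E-box that MYC binds (CACGTG) was found in 4 of 13 cytosolic and 1 of 14 mitochondrial windows, and in 7.15% of all windows. The motif of NRF1, a regulator of nuclear genes for mitochondrial proteins, was found in 3 of 13 cytosolic and 2 of 14 mitochondrial windows, and in 4.60% of all windows. No match of a motif overlapped a match of another, and each match is a description of letters only. Of the 5 genes with a response element, Gars, Iars and Yars rose, whereas Aars and Tars did not pass. Of the 5 with an E-box, Iars rose, and Aars, Farsb, Tars and Ears2 did not pass. Of the 5 with the NRF1 motif, Kars and Mars2 rose, and Farsb, Tars and Iars2 did not pass. The stretches below, from RefSeq, run 5′ to 3′ along the gene's strand from 150 bases before the start to 25 bases from it. Capitals mark the response element or E-box in the first 3 and the NRF1 motif in the last 2, read on either strand.
Gars (chr6:55037851-55038025, + strand): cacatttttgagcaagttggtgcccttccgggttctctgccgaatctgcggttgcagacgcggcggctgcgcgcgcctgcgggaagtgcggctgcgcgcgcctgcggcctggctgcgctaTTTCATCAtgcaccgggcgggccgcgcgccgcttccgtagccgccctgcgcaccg
Iars (chr13:49681980-49682154, + strand): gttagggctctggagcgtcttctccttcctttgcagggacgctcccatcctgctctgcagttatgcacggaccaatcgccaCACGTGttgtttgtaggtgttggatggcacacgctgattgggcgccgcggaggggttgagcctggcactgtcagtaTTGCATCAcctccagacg
Tars (chr15:11399634-11399808, - strand): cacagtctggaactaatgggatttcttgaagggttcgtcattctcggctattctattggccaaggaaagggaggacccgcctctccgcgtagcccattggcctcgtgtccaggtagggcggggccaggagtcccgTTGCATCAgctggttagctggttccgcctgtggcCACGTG
Kars (chr8:112011330-112011504, - strand): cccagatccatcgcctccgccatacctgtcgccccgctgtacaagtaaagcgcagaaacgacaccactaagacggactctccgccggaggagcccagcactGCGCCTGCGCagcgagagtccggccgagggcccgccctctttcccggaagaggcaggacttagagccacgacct
Mars2 (chr1:55237027-55237201, + strand): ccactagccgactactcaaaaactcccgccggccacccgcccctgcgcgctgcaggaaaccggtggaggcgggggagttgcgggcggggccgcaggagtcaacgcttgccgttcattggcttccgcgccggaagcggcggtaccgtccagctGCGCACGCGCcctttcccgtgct

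With the start base counted as 1 and the base before it as -1, the response element began at -30 in Gars, 8 in Iars and -15 in Tars, all near the start. In Yars it began at 4, and Aars held it at -112 and again at 10. Where a gene had several windows, the one of lowest coordinate was used. For Aars and Yars its start lies inside the annotated gene. Cut like those above, their stretches would begin at chr8:111033692 and chr4:129189753, against RefSeq gene starts of 111027778 and 129189734. An E-box began at -69 in Iars, 20 in Tars, -146 in Aars and -39 in Farsb. The NRF1 motif began at -49 in Kars and 3 in Mars2. Dars, Eprs, Farsa and Yars2 held none of the 3 motifs in their window and rose, and no test was made of the motifs against the fold changes.

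Of the 8 enzymes of the multisynthetase complex, 6 rose, with a median log2 fold change of 0.86. Mars, which charges methionine for both initiation and elongation, had 47.2 and 61.0 FPKM in 5-FU libraries and 20.8 and 21.4 FPKM in control libraries (log2 fold change 1.31, SE 0.21, adjusted p = 0.0149). Kars, which charges lysine in both the cytosol and the mitochondrion, had 109 and 111 FPKM in 5-FU libraries and 40.4 and 52.0 FPKM in control libraries (1.25, SE 0.20, adjusted p = 0.0148). Iars, the isoleucine enzyme, had 35.99 and 44.1 FPKM in 5-FU libraries and 18.8 and 15.2 FPKM in control libraries (1.19, SE 0.22, adjusted p = 0.0198). In all 3 genes the lower 5-FU library lay well above the higher control library. Rars, the arginine enzyme, had 62.7 and 73.5 FPKM in 5-FU libraries and 31.5 and 40.7 FPKM in control libraries (0.91, SE 0.21, adjusted p = 0.0354). Dars, the aspartate enzyme, was tight within groups, with 107 and 108 FPKM in 5-FU libraries and 62.1 and 59.3 FPKM in control libraries (0.81, SE 0.18, adjusted p = 0.0295). Eprs, a single chain that charges both glutamate and proline, had 60.1 and 62.7 FPKM in 5-FU libraries and 36.6 and 34.1 FPKM in control libraries (0.78, SE 0.19, adjusted p = 0.0367). Among the 6 genes that rose in the complex, Eprs and Dars had the smallest fold changes.

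The other 2 enzymes of the complex did not pass. Lars, the leucine enzyme, which in human cells also takes part in leucine sensing by mTORC1, had 36.9 and 37.3 FPKM in 5-FU libraries and 21.7 and 23.9 FPKM in control libraries (log2 fold change 0.68, SE 0.20, adjusted p = 0.061). Its groups did not overlap. Qars, the glutamine enzyme, had 35.5 and 37.6 FPKM in 5-FU libraries and 34.5 and 44.8 FPKM in control libraries (-0.10, SE 0.21, adjusted p = 0.772). It was the sole cytosolic member with a fold change below 0 and the sole cytosolic member whose groups overlapped. Its sign was not stable, with a log2 fold change of 0.078 without control library 2. The 3 scaffold proteins of the complex all rose, with a median log2 fold change of 1.27. Aimp2 had 58.8 and 78.7 FPKM in 5-FU libraries and 25.6 and 29.1 FPKM in control libraries (1.29, SE 0.22, adjusted p = 0.0164). Eef1e1, also known as Aimp3, had 65.4 and 95.8 FPKM in 5-FU libraries and 29.9 and 34.8 FPKM in control libraries (1.27, SE 0.24, adjusted p = 0.0194). Aimp1, the source of a secreted cytokine after cleavage, had 62.2 and 76.8 FPKM in 5-FU libraries and 32.9 and 36.7 FPKM in control libraries (0.97, SE 0.20, adjusted p = 0.0252).

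Of the 12 cytosolic genes outside the complex, 6 rose, with a median log2 fold change of 0.72. Hars, the histidine enzyme (chr18:36766528-36783205, - strand, GRCm38.p6), had 50.1 and 55.8 FPKM in 5-FU libraries and 17.0 and 22.6 FPKM in control libraries (1.39, SE 0.22, adjusted p = 0.0144). This was the largest of the 36 log2 fold changes on this scale, just above that of Mars2. Farsa, the catalytic subunit of the phenylalanine enzyme, had 89.5 and 102 FPKM in 5-FU libraries and 48.8 and 42.6 FPKM in control libraries (1.05, SE 0.19, adjusted p = 0.0188). Farsb, its partner subunit in the same tetramer, had 63.3 and 68.4 FPKM in 5-FU libraries and 49.3 and 40.5 FPKM in control libraries and did not pass (0.55, SE 0.20, adjusted p = 0.106). The ratio of Farsa to Farsb was 1.41 and 1.49 in 5-FU libraries and 0.99 and 1.05 in control libraries. The subunit ratio therefore did not overlap between groups, but 2 libraries against 2 cannot go below p = 0.333 in an exact permutation test, and the difference was not tested.

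Wars, the tryptophan enzyme and a known interferon-induced gene, had 26.9 and 31.2 FPKM in 5-FU libraries and 14.6 and 12.4 FPKM in control libraries (log2 fold change 1.05, SE 0.22, adjusted p = 0.026). Vars, the valine enzyme, had 68.8 and 64.8 FPKM in 5-FU libraries and 32.9 and 34.1 FPKM in control libraries (0.98, SE 0.19, adjusted p = 0.0203). Vars and Nars were the 2 cytosolic genes in which 5-FU library 1 lay above 5-FU library 2. Yars, the tyrosine enzyme, varied more, with 27.1 and 37.2 FPKM in 5-FU libraries and 17.2 and 15.3 FPKM in control libraries (0.93, SE 0.24, adjusted p = 0.0438). Gars, the glycine enzyme, which like Kars serves both compartments from a single gene, had 97.9 and 108 FPKM in 5-FU libraries and 53.3 and 57.0 FPKM in control libraries (0.89, SE 0.19, adjusted p = 0.0247). Gars is a gene with the response element, shown above.

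The remaining 5 cytosolic genes did not pass, and all 5 had both 5-FU libraries above both control libraries. Tars, the threonine enzyme, had 46.4 and 59.5 FPKM in 5-FU libraries and 35.8 and 35.2 FPKM in control libraries (log2 fold change 0.55, SE 0.21, adjusted p = 0.113). Sars, the serine enzyme, had 22.1 and 28.7 FPKM in 5-FU libraries and 16.1 and 17.8 FPKM in control libraries (0.55, SE 0.23, adjusted p = 0.151). Cars, the cysteine enzyme, had 18.9 and 23.4 FPKM in 5-FU libraries and 14.99 and 13.6 FPKM in control libraries (0.53, SE 0.23, adjusted p = 0.16). In Tars, Sars and Cars the 5-FU libraries differed from each other by more than the gap between the groups. Aars, the alanine enzyme, whose window held 2 response elements and an E-box, had 28.1 and 31.7 FPKM in 5-FU libraries and 20.2 and 23.6 FPKM in control libraries (0.43, SE 0.21, adjusted p = 0.207). Nars, the asparagine enzyme, had 55.2 and 49.7 FPKM in 5-FU libraries and 37.0 and 42.3 FPKM in control libraries (0.40, SE 0.20, adjusted p = 0.209).

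**Figure D2:**
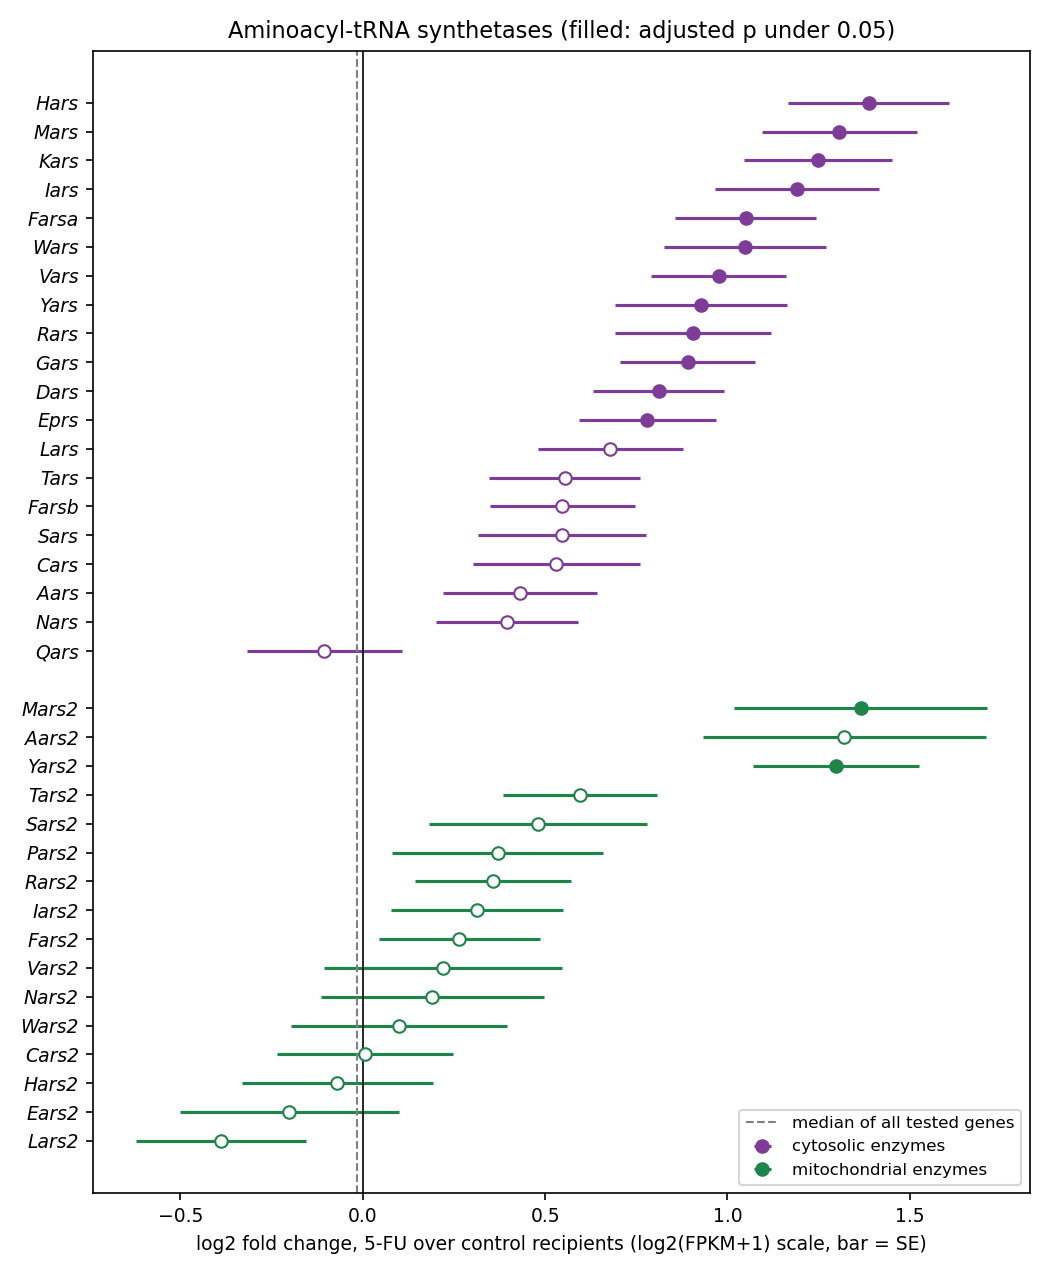
Log2 fold change, 5-FU over control recipients, of the 20 cytosolic (purple) and 16 mitochondrial (green) enzymes, with bars of 1 SE from limma and filled points for an adjusted p under 0.05. The dashed line is the median of all tested genes, -0.015; 12 purple and 2 green points are filled, all to the right of 0.

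The cytosolic genes were also divided by class and by known regulation. Synthetases fall into 2 classes by the fold of their catalytic core. Among 9 class I genes 6 rose (median log2 fold change 0.93), and among 10 class II genes 5 rose (median 0.68), with Eprs left out because it holds a core of each class. Of 12 genes listed as known ATF4 targets 6 rose (median 0.73), and of the other 8 cytosolic genes 6 rose (median 0.94). Of all 36 genes, Lars2 had the highest level in every library. Among cytosolic genes Kars had the highest mean in 5-FU recipients, 110.3 ± 1.63 FPKM, and Dars in control recipients, 60.7 ± 1.97 FPKM (SD, n = 2 each).

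The 2 mitochondrial enzymes that rose serve tyrosine and methionine. Yars2, the mitochondrial tyrosine enzyme (chr16:16302965-16309640, + strand), had 35.4 and 39.8 FPKM in 5-FU libraries and 16.9 and 12.8 FPKM in control libraries (log2 fold change 1.30, SE 0.23, adjusted p = 0.0168). Mars2, the mitochondrial methionine enzyme (chr1:55237177-55240058, + strand), had 8.29 and 12.8 FPKM in 5-FU libraries and 2.48 and 4.54 FPKM in control libraries (1.36, SE 0.35, adjusted p = 0.0438). Both rose, at levels that differed: Yars2 was the more abundant in every library. The Mars2 call was lost with a pseudocount of 0.1 (adjusted p = 0.0503) and with values scaled to TPM (adjusted p = 0.0598); over 15 alternatives its adjusted p ran from 0.00553 to 0.265. Aars2, the mitochondrial alanine enzyme and the lowest of the 36 by its mean over all 4 libraries, though not in the 5-FU libraries, had 3.77 and 5.11 FPKM in 5-FU libraries and 0.58 and 1.95 FPKM in control libraries (1.32, SE 0.39, adjusted p = 0.0627). Its groups did not overlap, but its control libraries differed from each other by more than 3-fold.

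Tars2, the mitochondrial threonine enzyme, had 38.9 and 45.1 FPKM in 5-FU libraries and 30.3 and 24.7 FPKM in control libraries (log2 fold change 0.60, SE 0.21, adjusted p = 0.0999). Sars2 (0.48), Pars2 (0.37), Rars2 (0.36) and Fars2 (0.27), for serine, proline, arginine and phenylalanine, also had both 5-FU libraries above both control libraries and did not pass, with adjusted p-values of 0.309, 0.42, 0.292 and 0.45. Iars2, for isoleucine, overlapped between groups, with 24.1 and 33.3 FPKM in 5-FU libraries and 24.2 and 21.04 FPKM in control libraries (0.31, adjusted p = 0.399). Wars2, for tryptophan, was low and even, with 3.09 and 3.03 FPKM in 5-FU libraries and 2.58 and 2.996 FPKM in control libraries (0.10, SE 0.30, adjusted p = 0.847). Vars2, for valine, had 5.16 and 3.26 FPKM in 5-FU libraries and 2.90 and 3.95 FPKM in control libraries (0.22, adjusted p = 0.686). Nars2, for asparagine, had 9.68 and 5.90 FPKM in 5-FU libraries and 6.16 and 6.88 FPKM in control libraries (0.19, adjusted p = 0.709). In both Vars2 and Nars2 the 5-FU libraries lay on either side of a control library, and without 5-FU library 1 the log2 fold change was -0.045 for Vars2 and -0.12 for Nars2.

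Cars2, for cysteine, had 16.3 and 22.1 FPKM in 5-FU libraries and 20.1 and 17.8 FPKM in control libraries (log2 fold change 0.0064, adjusted p = 0.988). Its sign turned under quantile scaling (-0.063), scaling to TPM (-0.073), and without 5-FU library 2 (-0.20) or control library 2 (-0.079). Hars2, for histidine, had 9.97 and 14.1 FPKM in 5-FU libraries and 13.3 and 11.8 FPKM in control libraries (-0.070, adjusted p = 0.88). Ears2, for glutamate, had 4.16 and 6.51 FPKM in 5-FU libraries and 6.12 and 6.19 FPKM in control libraries (-0.20, adjusted p = 0.69). Without 5-FU library 1 the values of Hars2 and Ears2 were 0.16 and 0.069, so neither had a settled direction.

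Lars2, the mitochondrial leucine enzyme (chr9:123366927-123462675, + strand), stood apart in level. It had 334 and 445 FPKM in 5-FU libraries and 479 and 533 FPKM in control libraries (log2 fold change -0.39, SE 0.23, adjusted p = 0.293). It was the sole member of the 36 with both 5-FU libraries below both control libraries, an order that 30.7% of tested genes showed. Its share of the summed mitochondrial synthetase level was 60.7% and 63.1% in 5-FU libraries and 73.0% and 76.9% in control libraries. Without 5-FU library 2 it passed as lower, with a log2 fold change of -0.61 and an adjusted p of 0.0358; over 15 alternatives its adjusted p ran from 0.0358 to 0.802. The annotation places no other protein-coding gene over it. Other sequence there, such as non-coding genes or repeats, was not checked.

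The sum over the 20 cytosolic genes was 1089 and 1196 FPKM in 5-FU libraries and 624 and 648 FPKM in control libraries. The sum over the mitochondrial genes was 551 and 706 FPKM in 5-FU libraries and 656 and 694 FPKM in control libraries, and the groups overlapped. Leaving Lars2 out of the sum separated them, with 217 and 260.1 FPKM in 5-FU libraries and 177 and 160.4 FPKM in control libraries. Whether the groups overlapped in the mitochondrial sum thus depended on Lars2. The median cytosolic level was 48.6 and 57.6 FPKM in 5-FU libraries and 32.2 and 34.1 FPKM in control libraries. Of the 20 cytosolic genes 18 were higher in 5-FU library 2 than in 5-FU library 1, as were 13 of the 16 mitochondrial genes. The total FPKM over all genes was also larger in 5-FU library 2, 762107 against 678270 in 5-FU library 1. The share of all tested genes with this order was not taken, so these counts are not read as a trait of the synthetases. All 18 macrophage markers were lower in 5-FU library 2 than in 5-FU library 1.

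**Figure D3:**
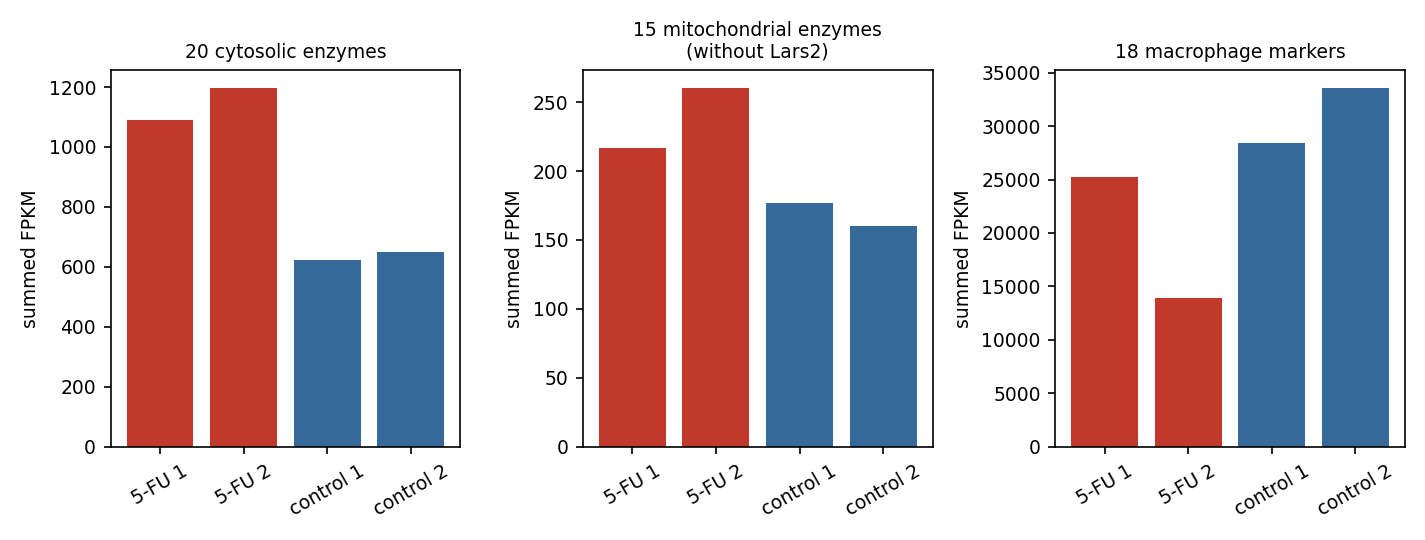
Summed FPKM of the 20 cytosolic enzymes, of 15 mitochondrial enzymes without Lars2, and of 18 macrophage markers in each library (5-FU red, control blue; bars start at 0 and are single libraries, so there are no error bars). The cytosolic sums of 1089 and 1196 stand above 624 and 648, while the macrophage sum is lowest, at 13934, in 5-FU library 2.

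Between the groups, macrophage markers had the opposite sign to most synthetases. Of the 18 markers 0 rose and 2 fell, all 18 had a log2 fold change below 0, and their median was -0.94. Among all tested genes 8.23% were called higher and 4.67% lower. Csf1r, the macrophage growth factor receptor, had 116 and 67.2 FPKM in 5-FU libraries and 204 and 226 FPKM in control libraries (log2 fold change -1.27, adjusted p = 0.027). Mrc1, the mannose receptor, had a log2 fold change of -1.08 (adjusted p = 0.0332). The summed level of 11 granulocyte markers was 3441 and 3308 FPKM in 5-FU libraries and 12227 and 9760.0 FPKM in control libraries, with 1 higher and 6 lower. The summed level of the erythroid markers was 353 and 497 FPKM in 5-FU libraries and 981 and 1059 FPKM in control libraries, with 6 of 9 tested lower. That of the B cell markers was 201 and 159 FPKM in 5-FU libraries and 365 and 372 FPKM in control libraries, with 5 of 8 tested lower. Among the 11 tested stem and progenitor markers 1 rose, Ly6a, which encodes Sca1 (1.19, adjusted p = 0.0315), and 1 fell, Ptprc, which encodes CD45 (-0.83, adjusted p = 0.0298). The part of these cell type markers in the synthetase fold changes was not tested. In 5-FU library 1, as in 5-FU library 2, the macrophage, granulocyte, erythroid and B cell sums were below both control sums. Since these markers differ with the groups in every library, their part cannot be told apart from that of the 5-FU treatment.

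The cytosolic and mitochondrial enzymes for the same amino acid were set side by side in 16 pairs. The cytosolic gene had the larger log2 fold change in 12 pairs, with a median difference of 0.54. The widest gap was that of Hars and Hars2, 1.46 on the log2 scale. The Hars level was 5.02 and 3.97 times that of Hars2 in 5-FU libraries and 1.28 and 1.93 times in control libraries. These genes lie head to head and their annotated spans overlap by 198 bases, so reads there could be split between them; whether the authors' counting used strand was not stated in the sources used here. Eprs stood at 14.4 and 9.64 times Ears2 in 5-FU libraries and 5.98 and 5.51 times in control libraries. Wars stood at 8.71 and 10.3 times Wars2 in 5-FU libraries and 5.67 and 4.15 times in control libraries. Iars was above Iars2 in 5-FU libraries, at 1.496 and 1.33 times its level, and below it in control libraries, at 0.78 and 0.72 times. None of these 4 ratios overlapped between groups. Over all 16 pairs the ratio was higher in both 5-FU libraries in 10, lower in both in 2, and overlapped in 4, those for methionine, asparagine, serine and threonine. Among single tested genes, 31.4% had both 5-FU libraries above both control libraries and 30.7% had both below. No such share was taken for ratios of gene pairs. Eprs was paired with both Ears2 and Pars2, so the pairs are not all independent.

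The mitochondrial gene had the larger fold change in the pairs for alanine, tyrosine, methionine and threonine. The Aars level was 7.46 and 6.204 times that of Aars2 in 5-FU libraries and 34.9 and 12.1 times in control libraries. Yars was at 0.77 and 0.93 times the level of Yars2 in 5-FU libraries and at 1.02 and 1.20 times in control libraries. The gaps in log2 fold change, cytosolic minus mitochondrial, were -0.89 for alanine, -0.37 for tyrosine, -0.058 for methionine and -0.043 for threonine. With SEs of 0.21 to 0.35 on the genes themselves, the methionine and threonine pairs had fold changes that could not be told apart. The same held for the serine and asparagine pairs, counted above with a larger cytosolic change. Their gaps were 0.067 for serine (SE 0.23 for Sars, 0.30 for Sars2) and 0.21 for asparagine (SE 0.20 for Nars, 0.31 for Nars2). Other gaps are not shown to be differences either, given the SEs of their genes. Among these were tyrosine (SE 0.24 for Yars, 0.23 for Yars2) and Eprs with Pars2 (0.41, SE 0.19 and 0.29). Cysteine (0.52, SE 0.23 for Cars, 0.24 for Cars2) and arginine (0.55, SE 0.21 for each gene) were further such pairs. The difference between compartments was not tested in any pair. Tarsl2, a further threonine enzyme gene and not among the 36, had 4.21 and 7.20 FPKM in 5-FU libraries and 3.57 and 2.98 FPKM in control libraries (log2 fold change 0.62, adjusted p = 0.239).

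**Figure D4:**
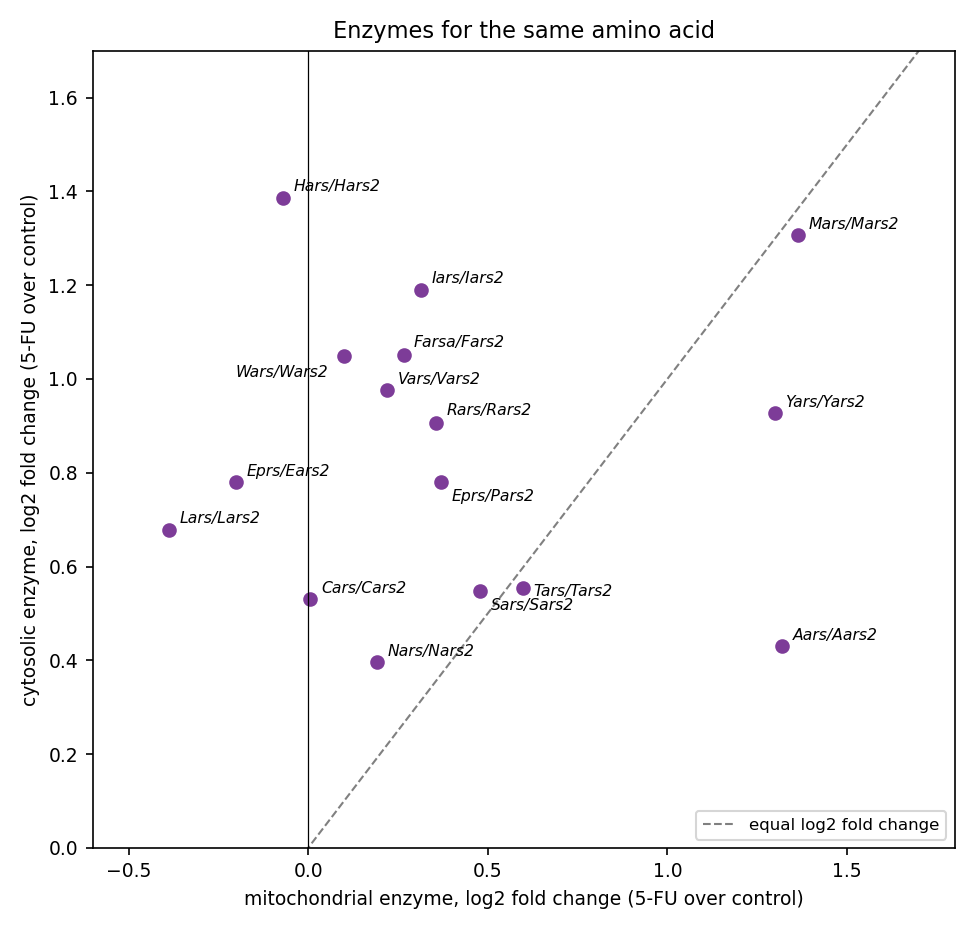
Log2 fold change, 5-FU over control recipients, of the cytosolic enzyme (vertical axis) against that of the mitochondrial enzyme for the same amino acid (horizontal axis), 1 point per pair, 16 pairs. The dashed line marks equal values; 12 points lie above it and the alanine, tyrosine, methionine and threonine pairs lie below it.

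Some members share annotated bases with a neighbour. Mars lies on chr10 at 127296221-127311786 and overlaps Ddit3, the stress gene that encodes CHOP, by 68 bases on the opposite strand. Ddit3, named here after its values were seen, had 22.2 and 19.98 FPKM in 5-FU libraries and 39.5 and 26.1 FPKM in control libraries (log2 fold change -0.59, adjusted p = 0.158), the opposite sign to Mars. Wars overlaps Wdr25 by 544 bases and Yars overlaps C77080 by 30 bases. Among members that did not pass, Farsb overlaps Sgpp2 by 2315 bases, Iars2 overlaps Rab3gap2 by 2034 bases, Aars overlaps Exosc6 by 1326 bases and Cars2 overlaps Naxd by 984 bases. Reads from such shared bases cannot be told apart here.

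Around the synthetases, genes that make and mature transfer RNA were read from the same fit. Of 24 genes for transfer RNA maturation and export 9 rose and 0 fell, with a median log2 fold change of 0.81. Among all tested genes 8.23% were called higher and 4.67% lower. Pus7, a pseudouridine synthase, had 23.1 and 35.1 FPKM in 5-FU libraries and 7.68 and 8.68 FPKM in control libraries (1.69, SE 0.27, adjusted p = 0.0144). Nsun2, a cytosine methyltransferase that modifies transfer RNA, had 61.2 and 84.6 FPKM in 5-FU libraries and 29.6 and 28.4 FPKM in control libraries (1.28, SE 0.22, adjusted p = 0.0165). RNA polymerase III transcribes the transfer RNA genes themselves. Of 17 genes for it and its factors 0 rose and 1 fell, with a median of 0.26. The gene that fell was Maf1, the repressor of this polymerase, with 70.9 and 68.7 FPKM in 5-FU libraries and 109.7 and 128 FPKM in control libraries (-0.75, SE 0.19, adjusted p = 0.0412). At an unadjusted p under 0.05, 2 genes of this list were higher, a smaller share than the 16.9% of all tested genes.

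Downstream of charging, 3 of 6 cytosolic elongation factor genes rose, with a median log2 fold change of 0.75. Among all tested genes 8.23% were called higher. Eif5a, which helps the ribosome past proline stretches, had 1492 and 2250.5 FPKM in 5-FU libraries and 683 and 647 FPKM in control libraries (1.46, SE 0.29, adjusted p = 0.0221). Eef1d, part of the exchange factor of eEF1A, had 149 and 203 FPKM in 5-FU libraries and 80.7 and 88.3 FPKM in control libraries (1.03, SE 0.22, adjusted p = 0.0251). In the mitochondrion 1 of 16 translation factors and transfer RNA enzymes rose, with a median of 0.37. That count is near the share of all tested genes. Tsfm, the mitochondrial exchange factor, was the 1 that rose. It had 50.2 and 71.7 FPKM in 5-FU libraries and 32.1 and 32.6 FPKM in control libraries (0.87, SE 0.23, adjusted p = 0.0463). Gfm1, a mitochondrial elongation factor, had a log2 fold change of 0.71 and did not pass (adjusted p = 0.0613).

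Of 8 genes that edit mischarged transfer RNA or serve selenocysteine 1 rose. That count is not far from the 8.23% of all tested genes called higher. Aarsd1, an alanyl editing protein, had 68.9 and 99.9 FPKM in 5-FU libraries and 15.5 and 25.05 FPKM in control libraries (log2 fold change 2.02, SE 0.29, adjusted p = 0.0115). The annotation lays a read-through gene over the whole of Aarsd1, so the value may take in its reads. Pstk, a kinase of the selenocysteine route, did not pass (0.48, adjusted p = 0.221).

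In the ATF4 pathway, of 24 genes listed beside the synthetases 20 were tested, 8 rose and 0 fell, with a median log2 fold change of 0.72. Among all tested genes 8.23% were called higher and 4.67% lower. Mthfd2, a mitochondrial folate enzyme, had 38.0 and 47.2 FPKM in 5-FU libraries and 8.46 and 9.15 FPKM in control libraries (2.14, SE 0.22, adjusted p = 0.00594). Psat1, a serine synthesis enzyme, had 60.4 and 86.5 FPKM in 5-FU libraries and 18.7 and 14.2 FPKM in control libraries (2.08, SE 0.25, adjusted p = 0.00853). Atf4 itself, which is known to be controlled largely by translation, had 46.9 and 78.0 FPKM in 5-FU libraries and 49.2 and 50.1 FPKM in control libraries, and its groups overlapped (0.28, SE 0.26, adjusted p = 0.503). Among 8 genes of the integrated stress response upstream of ATF4, 1 rose and 1 fell, counts too small to set apart from those shares. Eif2s1, the subunit of eIF2 on which the stress kinases act, had a log2 fold change of 1.02 (adjusted p = 0.0234). Ppp1r15a, the stress-induced phosphatase subunit that reverses their action, had 12.4 and 12.2 FPKM in 5-FU libraries and 42.9 and 43.5 FPKM in control libraries (-1.73, SE 0.20, adjusted p = 0.00795). Myc, a transcription factor that binds E-boxes, had 136 and 215 FPKM in 5-FU libraries and 66.2 and 62.4 FPKM in control libraries (1.40, SE 0.25, adjusted p = 0.0174).

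**Figure D5:**
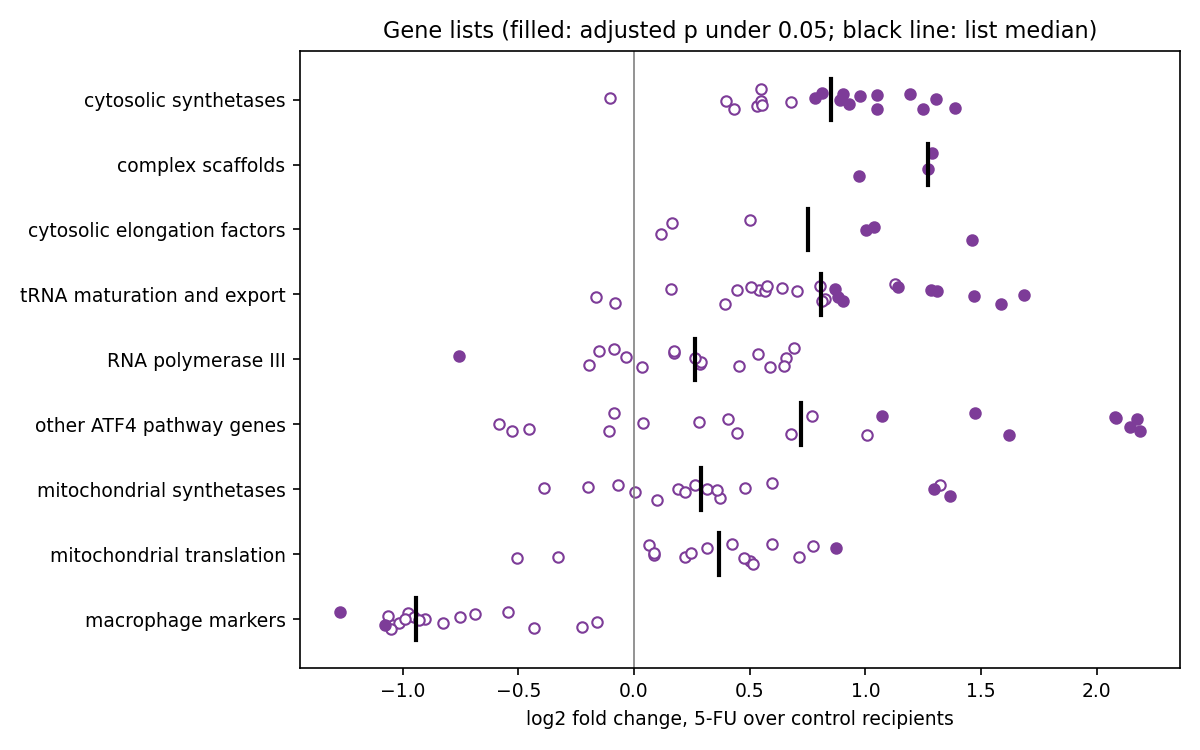
Log2 fold change, 5-FU over control recipients, of every tested gene in 9 lists, with filled points for an adjusted p under 0.05 and a black line at each list's median (points are spread vertically only to be seen). The cytosolic synthetases, median 0.85, and transfer RNA maturation genes, 0.81, lie mostly right of 0, RNA polymerase III genes, 0.26, and mitochondrial synthetases, 0.29, lie nearer to it, and macrophage markers, -0.94, lie left of it.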

How the data were processed

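Sorted EGFP+ cells were profiled by RNA-seq in 4 libraries, with a SMART-Seq Ultra Low Input kit and 75 bp single-end reads, per the labels' protocols. The deposited FPKM values were made by the authors with TopHat2 2.0.13, Bowtie2 2.2.3, SAMtools 0.1.19 and Cuffnorm 2.2.1 on mm10, per the submitters' processing notes. The sources used here do not state the annotation, Cuffnorm's library scaling or any use of strand. Read counts were not used, and the FPKM do not show how many reads a value rests on. In the 5-FU tables the day in the header disagrees with the day in the file name, so groups follow the labels.

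FPKM were used as log2(FPKM + 1) and compared by group with limma 3.58.1 in R 4.3.3, two-sided, letting the prior variance follow mean level. A gene was tested if at least 2 of the 4 libraries reached 1 FPKM. P-values were adjusted by Benjamini-Hochberg over all 11496 tested genes, with a threshold of 0.05. Each library is taken as 1 recipient, since the labels call the replicates biological; p-values then measure the spread between 2 recipients per group. The fit left 2 residual degrees of freedom, to which limma's prior contributed 5.62 more. The code was tested on simulated data. Levels between genes were compared only as FPKM.

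The members and lists were chosen with earlier results of these data known. Of 206 listed genes 201 matched by symbol, 4 by a synonym and 1 not at all. Named genes were all members, the 3 scaffolds, Tarsl2, Atf4, Myc, and at most 2 genes of smallest p from each other list, apart from some that are not reported here; Kit and Ddit3 were named after their values were seen. Gene positions and promoter sequences are RefSeq's for GRCm38.p6, and overlaps are from GENCODE. Alternatives were other pseudocounts, filters, scalings and variance models, a replicate block, and leaving out each library. Figures were drawn with matplotlib 3.10.9.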

Additional observations from a re-analysis of the deposited data

How the results depend on the processing

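Pseudocount 5, a filter of 5 FPKM, median-ratio scaling and robust variance estimates kept the counts of 12 cytosolic and 2 mitochondrial genes higher. The 12 cytosolic genes had positive fold changes in all 15 alternatives and passed in between 7 (Yars) and 12 of them; Mars2 passed in 7 and Yars2 in 12. Mitochondrial calls numbered 1 with a pseudocount of 0.1, with quantile scaling, with scaling to TPM and without the variance trend. Quantile scaling gave a cytosolic median of 0.72 and a Cars2 value of -0.063, and scaling to TPM a Cars2 value of -0.073; both left 10 cytosolic calls. Without the variance trend 6 cytosolic genes, and 548 higher and 299 lower genes in all, passed. Without the filter on low values 0 cytosolic and 0 mitochondrial genes passed in limma's test, with 17 and 4 at an unadjusted p under 0.05 (22.5% of all genes) and a smallest adjusted p of 0.0834; of all genes 3 were higher and 4 lower. The cause was not tested.

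Leaving out each library gave 0 to 17 cytosolic and 0 to 4 mitochondrial genes higher, 0 to 1 mitochondrial genes lower (Lars2, without 5-FU library 2), and 88 to 2122 genes higher and 38 to 1876 lower in all. Without 5-FU library 1 the cytosolic and mitochondrial counts were 17 and 4, and without 5-FU library 2 they were 11 and 1. Without control library 1 or 2 both counts were 0 in limma's test; at an unadjusted p under 0.05 there were 11 and 10 cytosolic and 2 and 3 mitochondrial genes, and 17.3% and 16.5% of all genes. The lone library of a group is then assumed to vary like the pair of the other group. Signs turned in such runs for 6 members, whose log2 fold changes ran from -0.47 to 0.069 (Ears2), -0.30 to 0.16 (Hars2), -0.12 to 0.51 (Nars2), -0.045 to 0.49 (Vars2), -0.20 to 0.22 (Cars2) and -0.29 to 0.078 (Qars). Median log2 fold changes ran from 0.77 to 0.88 for cytosolic and from 0.23 to 0.38 for mitochondrial genes.

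The replicate numbers pair nothing that the labels name. With the number as a block 9 cytosolic and 3 mitochondrial genes were higher, with 855 higher and 539 lower in all. Deviations of same-numbered libraries from their group means correlated at -0.16 across genes. A block with crossed numbers, added after seeing the data, gave 14 cytosolic and 4 mitochondrial genes higher, and 1686 higher and 1365 lower in all. With 2 libraries per group and unknown read depth, a gene that did not pass is not shown to be unchanged.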
